A study of Mus musculus with 4 samples.

Results

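The genes of the major histocompatibility complex (MHC) class I pathway were described in the left hippocampus of wild-type mice. The members are 8 genes given by symbol, and every probe set that the array's probe table pairs with exactly 1 of these symbols was taken. The 8 genes are 8 of 18194 named on the array, and they gave 25 of 45101 probe sets: 9 for H2-D1, 4 for H2-K1, 2 for B2m, 4 for Tap1, 1 for Tap2, 2 for Tapbp, 2 for Psmb8 and 1 for Psmb9. Another 3 probe sets list a member beside a further gene and were left out. The study holds 4 samples of complete left hippocampus, numbered 11, 13, 15 and 17 and described as biological replicates, each measured on 1 Affymetrix array. They form 1 group, all wild type and with no treatment named, so there is no comparison between conditions. The labels used here state no strain, age or sex, and nothing says whether each sample is 1 animal. The members were chosen with their levels and spread on these same arrays already known, so all values are descriptions without a test.

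MHC class I molecules carry peptides from inside the cell to its surface, where T cells and other cells read them. The proteasome cuts proteins into peptides, and Psmb8 and Psmb9 are catalytic subunits that replace standard ones in the immunoproteasome. Tap1 and Tap2 pair to form the transporter that moves peptides into the endoplasmic reticulum, and Tapbp (tapasin) ties the transporter to waiting class I molecules. H2-K1 and H2-D1 are the classical heavy chains, and B2m is the light chain they need to reach the surface. Interferons raise most of these genes in many cell types. In the brain, class I is present at low levels in microglia, endothelium and some neurons, and mouse work has tied it to synapse remodelling. The heavy chain genes are among the most variable in the genome, and their sequences are alike enough that array probes can read more than 1 of them.

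The promoters of the heavy chains were compared with each other, and those of the members were searched for the pathway's known control motifs. Likeness of promoters does not show how alike the transcribed sequences are that the probes read. The 250 bases before the start were taken from RefSeq (build GRCm38.p6) for 7 of 8 members, using the start furthest downstream where several are annotated; Tap2 was not matched. Capitals mark letters matching a searched motif on either strand: GAAA, any 2 bases and GAAA, the core of the interferon-stimulated response element (ISRE); TTCNNNGAA, the core of the gamma-activated site (GAS); CCAAT, the NF-Y box; GGGNNTTCC, a kappa B core; and TTTCNNTTC, a looser interferon-type motif added after the sequences were seen. H2-K1 lies at chr17:34000334-34000583 on the minus strand, H2-D1 at chr17:35262844-35263093 on the plus strand, B2m at chr2:122147437-122147686 on the plus strand and Tap1 at chr17:34187306-34187555 on the plus strand.
H2-K1: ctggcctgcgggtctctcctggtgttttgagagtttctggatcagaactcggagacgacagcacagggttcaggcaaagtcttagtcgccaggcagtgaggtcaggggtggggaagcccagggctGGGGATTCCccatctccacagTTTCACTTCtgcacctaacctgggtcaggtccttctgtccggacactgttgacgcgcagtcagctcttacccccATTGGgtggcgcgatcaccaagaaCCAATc
H2-D1: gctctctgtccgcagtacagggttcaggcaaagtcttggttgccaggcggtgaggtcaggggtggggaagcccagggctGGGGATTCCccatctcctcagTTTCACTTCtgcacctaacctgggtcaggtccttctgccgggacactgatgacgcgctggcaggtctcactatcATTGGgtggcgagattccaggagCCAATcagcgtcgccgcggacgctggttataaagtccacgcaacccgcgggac
B2m: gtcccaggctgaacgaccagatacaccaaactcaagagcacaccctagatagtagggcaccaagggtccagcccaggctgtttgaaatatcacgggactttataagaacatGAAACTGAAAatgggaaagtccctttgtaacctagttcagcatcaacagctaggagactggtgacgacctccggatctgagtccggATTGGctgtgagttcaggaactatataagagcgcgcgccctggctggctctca
Tap1: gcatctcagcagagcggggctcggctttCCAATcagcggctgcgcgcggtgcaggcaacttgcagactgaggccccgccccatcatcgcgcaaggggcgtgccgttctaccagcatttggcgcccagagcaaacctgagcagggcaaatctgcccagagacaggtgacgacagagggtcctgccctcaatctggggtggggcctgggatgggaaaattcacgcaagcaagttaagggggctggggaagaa
The H2-K1 and H2-D1 windows aligned over 203 bases with 87.2% identity, and the longest run they share is 47 bases, which spans the kappa B match. Both hold the kappa B core, present in 4.91% of 27025 promoter windows of this length, and the added interferon-type motif, present in 6.48%. In H2-D1 the kappa B match stood at -171 to -163 and the added motif at -150 to -142 from the start. In H2-K1 they stood at -125 to -117 and at -104 to -96. The CCAAT box on the gene's own strand stood at -53 to -49 in H2-D1 and at -6 to -2 in H2-K1. A further match on the opposite strand stood at -76 to -72 in H2-D1 and at -30 to -26 in H2-K1. All these positions depend on where each start is annotated. B2m was the member with an ISRE core, at -139 to -130, a motif found in 3.03% of windows. Psmb8 was the member with a GAS core, at -97 to -89, found in 7.12%. The NF-Y box was present in 6 of the 7 windows (H2-D1, H2-K1, B2m, Tap1, Tapbp and Psmb9) and in 34.0% of all. The Psmb9 window runs the other way on the same stretch as that of Tap1, and they share 225 bases, so that their NF-Y match, at chr17:34187334-34187338, is 1 box counted for both genes. These matches are descriptions of letters, and the arrays measured nothing bound there. None of the motifs overlap one another in these windows.

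**Figure D1:**
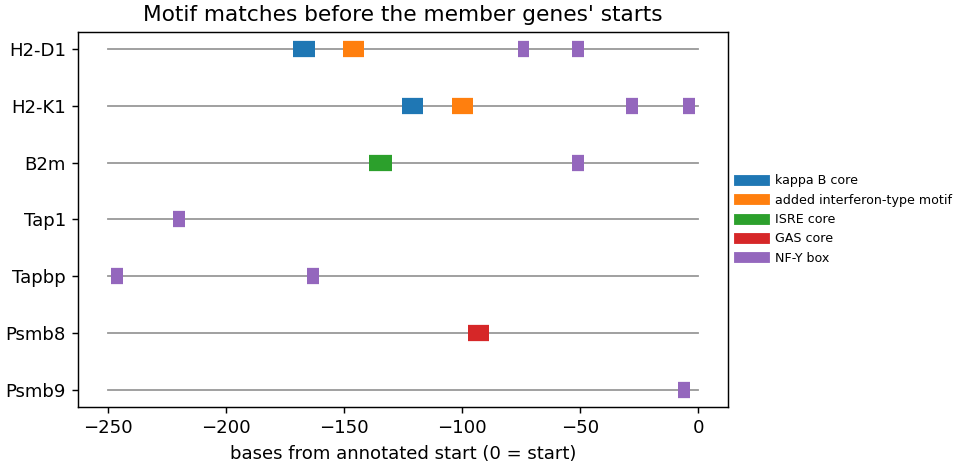
Positions of motif matches in the 250 bases before the annotated start (x axis, bases from the start) of 7 members, with 1 line per gene and colours for the motifs searched. The kappa B core and the added interferon-type motif lie in the same order in H2-D1 and H2-K1.

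Levels are log2 intensities, and a probe set counts as above background when its mean over the 4 samples exceeds 6.38. That limit is the 95th percentile of 50 measured genes of testis, liver, skin, muscle, pancreas and other tissues. Of these 50 genes, 3 lay above it themselves, among them the keratin gene Krt10 at 7.44. Of the 8 members, 4 had a probe set above it, H2-D1, H2-K1, B2m and Tapbp, against 45.2% of 18194 genes on the array. By probe set, 7 of 25 lay above it, against 29.3% of all. The member closest above the limit was Tapbp at 7.12, lower than Krt10, and the closest below was a probe set of H2-D1 at 5.45. Intensity depends on how well a probe set binds, so the levels of different genes are not ranked. A level under the limit does not show that a gene was silent. In tissue RNA, fewer cells of a type and less RNA per cell cannot be told apart.

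**Figure D2:**
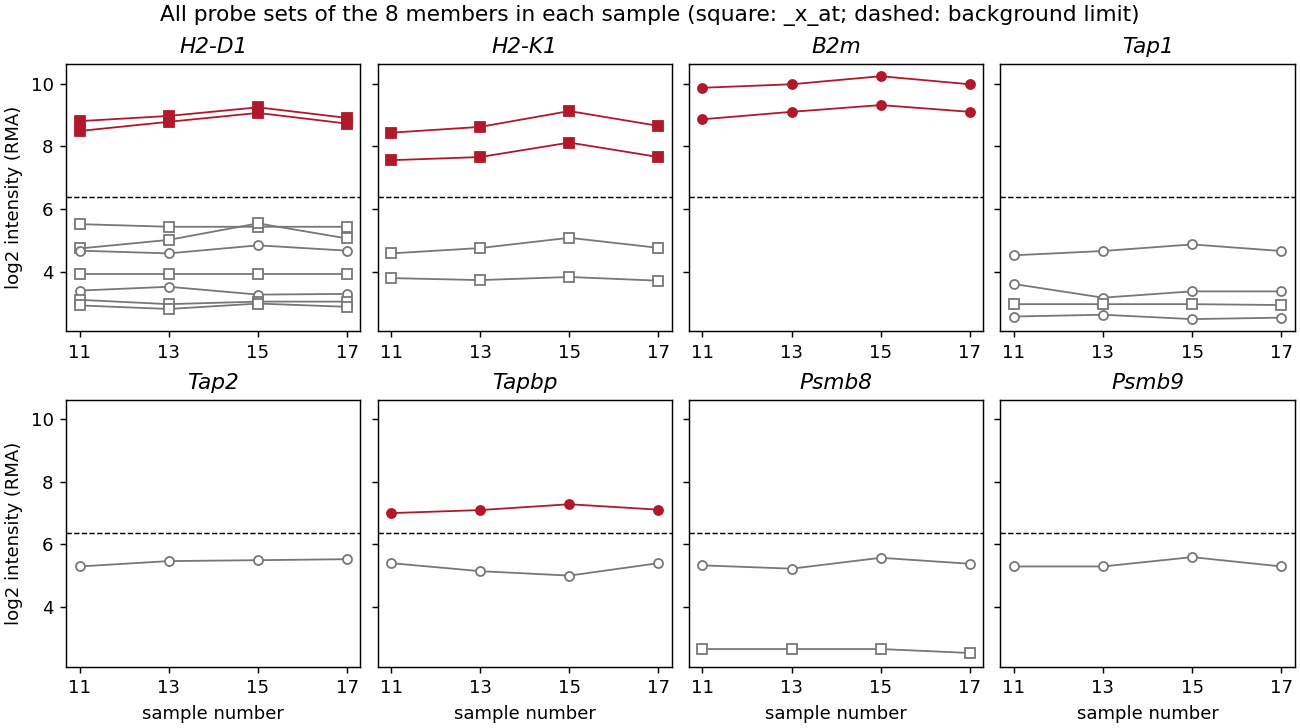
Log2 intensity (y axis) of every probe set of the 8 members in samples 11, 13, 15 and 17 (x axis), 1 array each, with squares for probe sets whose name ends in _x_at, filled red symbols for those above background and a dashed line at the limit of 6.38. Lines link values of 1 probe set and stand for no order of samples; all 7 filled series peak in sample 15.

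The heavy chain H2-K1 had the largest spread of the detected members. Its brightest probe set (1425336_x_at) read 8.43, 8.62, 9.12 and 8.65 in samples 11, 13, 15 and 17, or 8.71 ± 0.29 (SD, n = 4). Sample 15 stood 1.61-fold above sample 11 on the linear scale. The second detected probe set (1451931_x_at) read 7.56, 7.66, 8.12 and 7.66 in the same order, a 1.48-fold span with the same sample at each end. Of the remaining pair under background, 1427746_x_at had the same order of extremes, at 4.58 in sample 11 and 5.08 in sample 15, and 1450534_x_at stayed between 3.71 and 3.83.

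H2-D1, the other heavy chain, followed the same order in both of its detected probe sets. The brightest (1425545_x_at) read 8.80, 8.97, 9.24 and 8.90 in samples 11, 13, 15 and 17, or 8.98 ± 0.19, and 1451784_x_at read 8.49, 8.78, 9.06 and 8.72. Their spans were 1.36-fold and 1.49-fold. Both are again highest in sample 15 and lowest in sample 11, while samples 13 and 17 lie between and within 0.1 of each other. The other 7 probe sets of H2-D1 had means from 2.89 to 5.45. Among them 1451683_x_at had the largest spread of all member probe sets, from 4.73 in sample 11 through 5.01 and 5.05 in samples 13 and 17 to 5.54 in sample 15. The probe set 1425614_x_at held 3.92 in all 4 samples, and 1451934_at had its lowest value, 3.26, in sample 15 and its highest, 3.51, in sample 13.

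All 4 heavy chain probe sets above background carry the maker's suffix _x_at, which marks sets whose probes can match other genes. Of the 13 heavy chain probe sets, 11 have it. The 2 without it, 1426324_at and 1451934_at of H2-D1, lay under background at 4.69 and 3.36. The signal of H2-D1, H2-K1 and related class I genes can therefore not be told apart on this array, and the values are those of probe sets named for them. Some heavy chain probe sets may be built on alleles that these mice do not carry. This could not be checked, as the labels used here state no strain. Across the whole array, 530 of 1951 probe sets above background with the suffix _x_at or _s_at were highest in sample 15.

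B2m, whose probe sets carry no such suffix, had the same extremes. Its brightest probe set (1452428_a_at) read 9.87, 9.98, 10.24 and 9.98 over samples 11, 13, 15 and 17, or 10.02 ± 0.16. The other (1449289_a_at) read 8.86, 9.10, 9.32 and 9.10. The spans were 1.29-fold and 1.37-fold. In both, samples 13 and 17 hold exactly the same value between the extremes.

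Tapbp, the tapasin gene, had 1 detected probe set and the smallest spread of the detected members. It (1421812_at) read 6.998, 7.10, 7.28 and 7.11 over samples 11, 13, 15 and 17, or 7.12 ± 0.12, a 1.22-fold span. The order of extremes was again that of the heavy chains. Its second probe set (1450378_at), under background, went the other way with its lowest value, 5.002, in sample 15 and 5.40 in samples 11 and 17. The probe sets of Tapbp thus disagree.

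The transporter subunits lay under background in every probe set. The brightest of Tap1 (1416016_at) read 4.52, 4.65, 4.86 and 4.65 in samples 11, 13, 15 and 17, with the same extremes as the detected members. Its other 3 probe sets had means from 2.55 to 3.37 and different extremes: 1448177_at was highest in sample 11 and 1420274_at in sample 13. Tap2 (1453913_a_at) read 5.29, 5.47, 5.49 and 5.53 and was highest in sample 17. It was the member whose brightest probe set did not peak in sample 15.

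The immunoproteasome subunits were under background too. Psmb8 (1422962_a_at) read 5.33, 5.22, 5.57 and 5.38 over the samples in the same order. Its second probe set had a mean of 2.63. Psmb9 (1450696_at) stood at 5.59 in sample 15 and at 5.29 in the other 3 samples. Both stood highest in sample 15, but at levels where the arrays do not show that the gene was detected.

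By sample, all 7 detected member probe sets had their highest value in sample 15 and their lowest in sample 11. Over all 13202 probe sets above background, 25.7% were highest in sample 15 alone, and 15.2% were highest there and lowest in sample 11. In all 7, sample 15 exceeded the next sample by more than 0.1 on the log2 scale, against 6.85% of all. Over all 25 member probe sets, including those under background, 15 were highest in sample 15 alone, against 18.3% of all 45101. The 7 probe sets had mean deviations of -0.20, -0.03, 0.28 and -0.04 over samples 11, 13, 15 and 17, which is a 1.40-fold span, while all probe sets above background deviated by -0.03, 0.01, 0.01 and 0.01. The 7 are not independent: they come from 4 genes, and the heavy chain probes share sequence. No array-wide test was made of this order, since the members were picked with it known, and sample 15 is a single array.

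**Figure D3:**
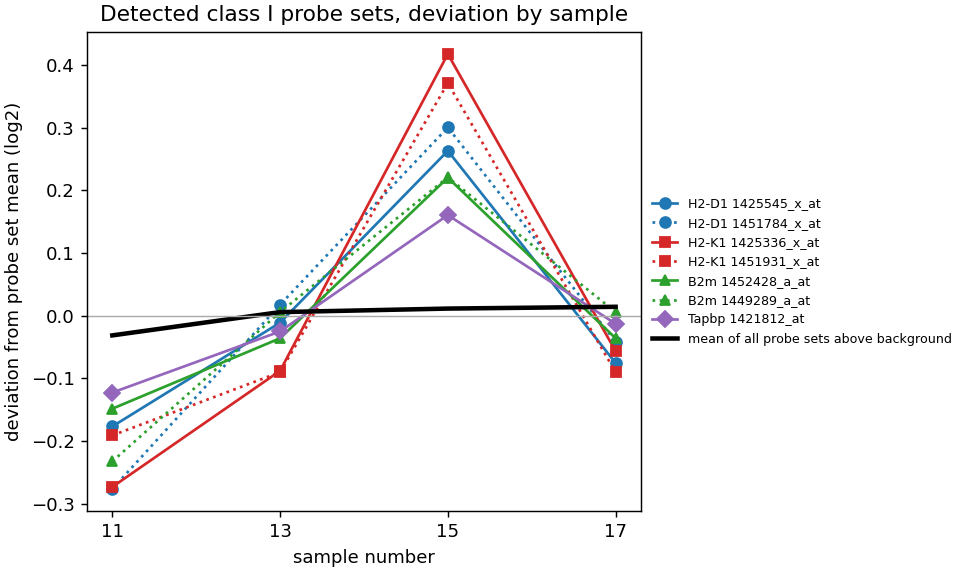
Deviation of each detected member probe set from its own mean (y axis, log2) in the 4 samples (x axis), 1 array each, with the mean of all 13202 probe sets above background in black; lines link values of 1 probe set. The members peak in sample 15 at 0.16 to 0.42, where the black line is at 0.01.

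The order rests on samples 15 and 11. Without sample 15 the span between the highest and lowest sample was 0.22 for H2-K1, 0.17 for H2-D1 and 0.11 for B2m on the log2 scale, against 0.69, 0.44 and 0.37 with it. Without sample 11 it was 0.51, 0.34 and 0.26. The deposited arrays also differ in how well the 5' ends of transcripts were read. The 3' minus 5' difference of Gapdh was 0.62, 0.62, 2.64 and 3.79 over samples 11, 13, 15 and 17. That of Actb differed less between the arrays, at 1.10, 1.25, 1.93 and 2.33. The members' highest sample, 15, thus had a larger difference than their lowest, 11, and sample 17, where the members lay near their means, the largest. Its part in the members' order was not tested.

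The spread of the detected members was wider than that of most probe sets. The SD was 0.29 and 0.25 for H2-K1, 0.19 and 0.24 for H2-D1, 0.16 and 0.19 for B2m and 0.12 for Tapbp. Of all probe sets above background, 96.5% had a smaller SD than the brightest of H2-K1, 88.2% than that of H2-D1, 81.2% than that of B2m and 66.7% than Tapbp. The median SD of the 7 was 0.19, against 0.090 over all. This rests on sample 15: without it the median SD was 0.084 for the 7 and 0.088 over all probe sets above background. Exactly equal values in at least 2 samples occurred in 13 of the 25 member probe sets, against 53.2% of all, and in 3 of the 7 detected ones, against 29.8% of those above background.

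**Figure D4:**
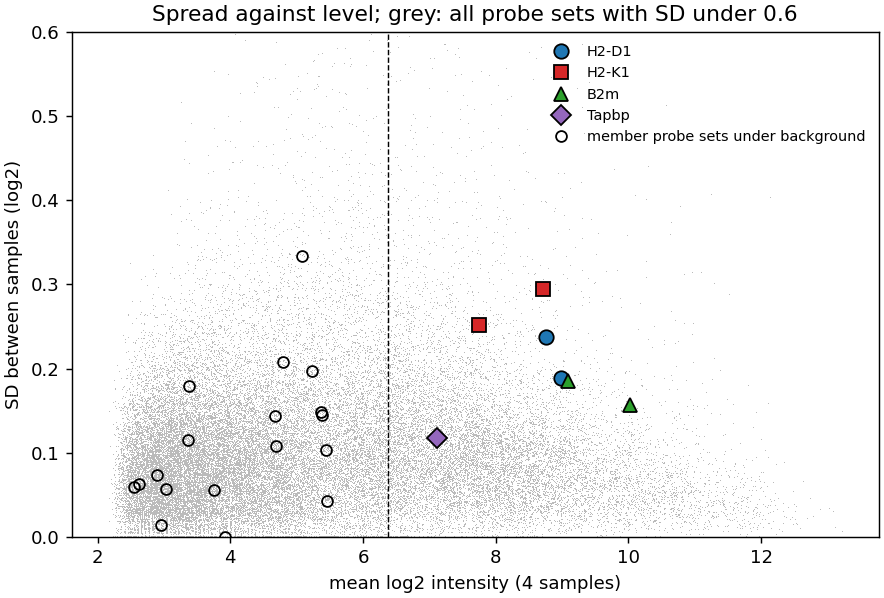
SD between the 4 samples (y axis, log2) against mean log2 intensity (x axis) for all probe sets with an SD under 0.6 (grey), the 7 member probe sets above background (coloured) and the 18 under it (open circles). The dashed line is the limit of 6.38, and H2-K1 has the highest SD of the coloured points, at 0.29.

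Other genes of the pathway were taken from 9 lists chosen by role, with 94 of 115 genes measured and 42 above background. That is near the share over the array, 45.2% of 18194 genes, and the list counts that follow stand against the same share. Of the proteasome list, 9 of 9 were above background. The standard catalytic subunits were among them: Psmb5 at 10.105 ± 0.080 and Psmb6 at 9.36 ± 0.076, which Psmb8 and Psmb9 can replace, and Psmb7 at 10.80 ± 0.046. Their SDs were smaller than those of the detected heavy chains and B2m. The activator subunit Psme3 had the largest SD of that list and read 8.004, 8.20, 8.46 and 8.52 in samples 11, 13, 15 and 17. Of the cytosolic peptidases, which trim peptides, 6 of 6 were detected, and 4 were highest in sample 13, as were 18.0% of all genes above background by their brightest probe set.

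Of the genes for class I folding and loading, 8 of 10 were above background. Of these, 6 were highest in sample 13, against 18.0% of all genes above background, and 0 in sample 15, against 27.4%. The chaperone Calr, part of the loading complex, read 10.69, 10.88, 10.78 and 10.80. Pdia3, the disulfide isomerase of that complex, read 9.72, 9.95, 9.44 and 9.47 and was lowest in sample 15. The general loading chaperones thus mostly had another highest sample than the heavy chains, B2m and Tapbp. Of the 8, 4 were lowest in sample 11, near the 47.3% of all genes above background.

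Relatives of the heavy chains and class II genes were mostly under background. Of 14 measured class I relatives, 1 passed, Fcgrt, the Fc receptor that also pairs with B2m, at 6.95, 6.86, 7.13 and 7.20. H2-T24, H2-T3 and H2-Q2 had means of 3.48, 5.73 and 2.27. Of 10 class II genes, 1 passed, the peptide exchange chain H2-DMa, which read 6.52, 6.57, 6.88 and 6.69 and was highest in sample 15 and lowest in sample 11. H2-Ab1 and H2-Eb1, chains of class II molecules on antigen-presenting cells, had means of 4.396 and 5.13. Receptors reported for class I in brain were at 0 of 4, with Pirb at 3.14 and Cd247 at 3.58.

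The transcription factors had another highest sample than the members. Of 14 measured, 8 were above background. Of these, 7 were highest in sample 17, against 38.9% of all genes above background, and 5 were lowest in sample 11, against 47.3%. Irf1, which interferon induces and which acts on class I promoters, read 6.72, 6.72, 6.76 and 6.79, and Nlrc5, the class I transactivator, had a mean of 3.08 under background. Of 10 interferon signalling genes 7 passed. Of these 4 were highest in sample 17, 2 in sample 15 and 1 in sample 11, and 2 were lowest in sample 11. Over all genes above background, 38.9% were highest in sample 17, 27.4% were highest in sample 15 and 47.3% were lowest in sample 11. The receptor chain Ifnar1 read 6.37, 6.35, 6.46 and 6.54. The chains Ifnar2 and Ifngr1 were highest in sample 15, at 6.99 and 6.89 against 6.47 and 6.61 in sample 11, while Ifngr2 stood at 7.92, 7.85, 7.36 and 7.02 in samples 11, 13, 15 and 17. Of 17 interferon-responsive genes 2 passed. Of these 1 was highest in sample 15 and lowest in sample 11, and 1 was highest in sample 13 and lowest in sample 17. Ifitm3, a membrane protein with antiviral action, read 7.64, 8.02, 8.10 and 7.70, and Ifit1, Ifit2 and Ifit3 lay under background with means of 3.97, 4.83 and 5.28.

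**Figure D5:**
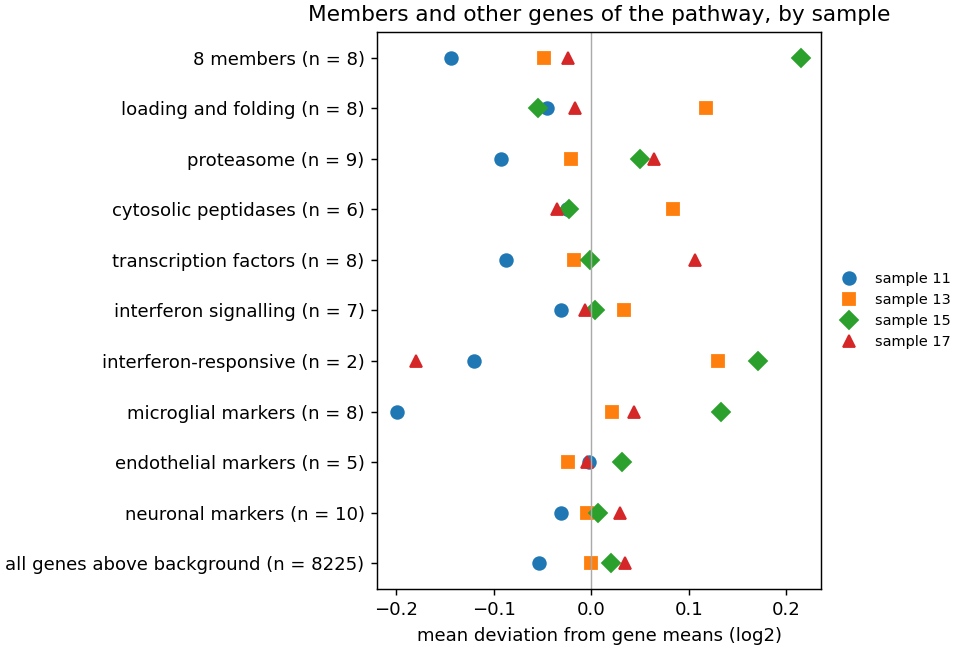
Mean deviation from each gene's own mean (x axis, log2) by sample for the 8 members, by their brightest probe sets, and for the genes above background of the other lists (rows, with the number of genes), 1 array per sample. The members stand at 0.22 in sample 15 and microglial markers at 0.13, and loading and folding genes at -0.05.

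Microglial markers shared the members' extremes in most cases. Of 12 measured, 8 were above background. Of these 5 were highest in sample 15, against 27.4% of all genes above background, and 7 were lowest in sample 11, against 47.3%, with mean deviations of -0.20, 0.02, 0.13 and 0.04 in samples 11, 13, 15 and 17. The summed linear intensity of the 12 was 3282, 3674, 4077 and 3722, a 1.24-fold span. Csf1r, the growth factor receptor of microglia, read 9.73, 9.85, 10.09 and 9.90, and the complement gene C1qb 8.02, 8.45, 8.51 and 8.47. Cx3cr1, a chemokine receptor of microglia, was highest in sample 11, at 7.71 against 7.63 in each of the others. P2ry12, under background, read 6.21, 6.15, 6.08 and 5.67 in samples 11, 13, 15 and 17 and was also highest in sample 11. Aif1, Itgam and Trem2 lay under background too. The part of microglial RNA in the members' order was not tested. Endothelial markers, 5 of 10 above background, deviated by -0.003, -0.02, 0.03 and -0.005, and their summed intensity spanned 1.05-fold. Leukocyte markers were at 0 of 9 above background and their summed intensity spanned 1.03-fold, with Ptprc at 4.59 and Cd3e at 5.602. Neuronal markers, at 10 of 10, spanned 1.04-fold in summed intensity. Of the markers of other brain cells 9 of 10 for astrocytes and 8 of 8 for oligodendrocytes were detected, and of those of tissue nearby 1 of 8 for choroid plexus, 3 of 7 for meninges and 0 of 4 for red blood cells. Some of these lists spanned more in summed intensity than microglia did, with 5.05-fold for choroid plexus, 1.47-fold for meninges and 1.31-fold for oligodendrocytes, against 1.03-fold for astrocytes and 1.12-fold for red blood cells. Their highest samples were not that of the members: 8 of 8 detected oligodendrocyte markers and the choroid plexus marker Ttr were highest in sample 13, and 3 of 3 meningeal markers in sample 11. The part of these cells in the members' order was not tested.

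All members but B2m lie in or next to the MHC on chromosome 17, and B2m is on chromosome 2. Psmb9, Tap1, Psmb8 and Tap2 follow each other there as neighbouring protein-coding genes in the RefSeq table. Of the neighbours of the detected members, some had the same highest sample and others did not. Over all genes above background, 27.4% were highest in sample 15 alone. Beside H2-K1, Vps52 read 7.29, 7.41, 7.49 and 7.41 in samples 11, 13, 15 and 17, H2-Ke6 6.41, 6.72, 6.79 and 6.73, Ring1 stayed between 7.74 and 7.78, and the ribosomal protein gene Rps18 was lowest in sample 17 at 10.24. Beside H2-D1, Ddx39b and Atp6v1g2 were highest in sample 17, at 10.32 and 11.63. Beside Tapbp, Zbtb22 read 7.49, 7.69, 7.94 and 7.84, and Rgl2, Pfdn6 and Daxx were highest in sample 15 with spans of 0.16, 0.055 and 0.0082. Next to B2m, Patl2, Trim69 and Terb2 lay under background.

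Genes elsewhere in the genome had patterns at least as like the heavy chains as the other members had. Likeness was taken as the root-mean-square difference of deviations over the 4 samples, among 8224 genes above background. The 5 closest to H2-D1 were Spry2, Ergic1, Ptp4a3, Mrpl54 and Fabp5, at 0.023 to 0.033. B2m came at place 12 with 0.035, Tapbp at place 92 and H2-K1, whose span is wider, at place 537 with 0.099. For H2-K1 the 5 closest were Epop, Daglb, Myl9, Penk and Zfpm1, at 0.038 to 0.072. H2-D1 came at place 24, B2m at place 48 and Tapbp at place 223 with 0.154.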

How the data were processed

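Per the labels, DNase-treated total RNA was amplified and biotin-labelled. Each deposited value is a log2 intensity of 1 probe set. The authors used RMA, as the submitters' processing notes name it, without version or settings; RMA by design removes background, aligns the arrays' distributions and combines the probes of a set. Array medians lay between 4.67 and 4.71, and the number of arrays, 4, limits precision.

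Probe sets were named from the platform's probe table: 34958 had 1 symbol, 932 several and 9211 none, and 34754 of the first were brought up to date through RefSeq (GRCm38.p6). A gene is represented by its probe set with the highest mean. Named genes are all members, the first 3 measured of each list, the gene above background with the largest SD per list, the 5 nearest patterns and the 2 neighbours on each side; not every one is given in the text. The members and lists were chosen with earlier results of these data known. No test was run. The counts of members and pathway genes above background, and of detected member probe sets by highest sample, were recomputed under alternatives. So were the median SD of the detected member probe sets and the spans of both heavy chains and B2m. Counts by single list, marker sums, likeness places, motif counts and the span of Tapbp were not recomputed. A planned protein comparison was not made. The measures were tried on simulated data. Python 3.11.15, pandas 2.3.3, Biopython 1.88 and matplotlib 3.10.9 were used.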

Additional observations from a re-analysis of the deposited data

Results flagged for a closer look

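In groups of 4, a sample stands apart where its gap to the nearest other sample, divided by the whole range, exceeds Dixon's 95% critical value. Chance gives about 1 such case in 20 groups where values are normally distributed and without ties. Exactly equal values in at least 2 samples occurred in 53.2% of all probe sets, so that rate cannot be applied here. A group with 3 equal values gives a ratio of 1 whatever the size. Among member probe sets the ratio was 1 for Psmb9 (sample 15 high), for 1452544_x_at of H2-D1 (sample 11 high) and for 1449803_x_at of Tap1 and 1444619_x_at of Psmb8 (sample 17 low in both), all under background and each with 3 equal values. None of the 7 detected member probe sets stood out by this measure.

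Among other genes of the pathway the ratio was 1 for Psmb5 (sample 13 high), Ide (17 high), H2-Q2 (11 high), H2-Ab1 (17 high) and Pirb (15 low), 0.936 for Ifngr1 (11 low), 0.920 for Ifit1 (17 high), 0.906 for Ifit3 (11 low) and 0.898 for the mean of the cytosolic peptidases (13 high). For markers and the background genes it was 1 for Cx3cr1 (11 high) and Prm2 (15 high) and 0.871 for C1qb (11 low). For neighbours it was 1 for Daxx (15 high), 0.886 for Rps18 (17 low), 0.929 for Terb2 (17 low) and 0.888 for H2-Ob (11 low). Among the genes nearest H2-K1 in pattern it was 0.908 for Penk and 0.831 for Zfpm1 (15 high in both).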

How the results depend on the processing

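Counts of the members depended on the background limit and on probe set choice, and their spreads on sample 15. The number of member genes above background was 4 as reported, 7 with the median of all probe sets as the limit, 2 without probe sets named _x_at or _s_at (B2m and Tapbp) and 1 where a gene's probe sets were replaced by their median. Member probe sets above background were 7, 14 and 3 as reported, with the lower limit and without those sets, and 7, 11 and 3 of them were highest in sample 15. The pathway count was 42, 60 with the lower limit and 27 with the median over probe sets. Over the omission of each sample in turn, the log2 span ran from 0.22 to 0.69 for H2-K1, 0.17 to 0.44 for H2-D1 and 0.11 to 0.37 for B2m, the median SD from 0.084 (without sample 15) to 0.23, the pathway count from 41 to 43, and the member counts kept 4 and 7. Without samples 15 and 17, chosen after seeing the data, the spans were 0.19, 0.17 and 0.11 and the median SD 0.12. Repeating the quantile normalization or centring the arrays moved no count of the members. No paired analysis was possible because there is 1 group. Without _x_at and _s_at sets neither heavy chain has a detected probe set, so no spread is given for them.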

Other observations

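Of the 3 probe sets paired with a member and a further gene, all lay under background. The one shared by H2-K1 and H2-D1 read 4.36, 4.41, 4.70 and 4.43 over samples 11, 13, 15 and 17, with the same extremes as the detected heavy chain probe sets. The one shared by H2-Q5 and H2-K1 read 4.83, 4.72, 4.55 and 4.78 and was lowest in sample 15.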
